A study of Mus musculus with 38 samples.

Results

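The fibrinogen gene cluster of mouse liver was described as all peaks of 6 histone marks that overlap a window of 130 kb on chromosome 3 (chr3:82790000-82920000, build mm9), which holds Fgg, Fga and Fgb. Peaks sharing at least 1 bp with the window were kept, without regard to their values, and they numbered 55 of the 384017 peaks in 12 lists. Chromatin immunoprecipitation followed by sequencing was done on whole liver of male and of female CD-1 mice, an outbred stock, aged 8 weeks, with no treatment named for these libraries. Each mark has 1 list per sex: 4 male and 3 female libraries lie behind the H3K4me1 and the H3K4me3 lists, 3 of each sex behind H3K27ac and H3K27me3, and 2 of each sex behind H3K36me3 and H3K9me3. All libraries behind a list carry the same deposited file, so the values below have no spread between animals and the sexes were not tested against each other. The tissue was not sorted, so a change in one cell type and a change in cell makeup cannot be told apart. Reads inside the peaks of a list ranged from 1526754 (H3K9me3, male) to 20459697 (H3K4me1, female), and the intervals given below are exact Poisson 95% intervals that cover counting error only.

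Fibrinogen is the soluble plasma protein that thrombin cuts to form the fibrin of a clot. It is assembled in hepatocytes from paired Aα, Bβ and γ chains, which are the products of Fga, Fgb and Fgg, and is secreted into the blood. All the chains are needed for secretion, the genes lie side by side, and their transcription in liver rises in the acute phase response through interleukin 6 and STAT3. H3K4me3 marks active promoters, H3K4me1 the flanks of promoters and enhancers, H3K27ac active promoters and enhancers, and H3K36me3 the bodies of transcribed genes, whereas H3K27me3 and H3K9me3 mark silent chromatin.

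The start sites were placed on mm9 by exact matches between RefSeq promoter sequences and reads of an IgG control library. Fgg starts at 82811647 and Fga at 82830076, both on the forward strand. Fgb starts at 82853786 on the reverse strand and so points towards Fga. The placements rest on 10, 5 and 9 reads for Fgg, Fga and Fgb, each at 5 distinct positions. Starts of 2 long noncoding RNAs also fall in the window: Gm30097 at 82812338, just inside Fgg on the other strand, and Gm40075 at 82842897, between Fga and Fgb. The protein-coding gene next to Fgb in RefSeq order is Plrg1, whose start was not placed.

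The 250 bases before each start are shown because the peaks of all 4 active marks meet at or near these stretches. They come from RefSeq and run 5′ to 3′ on the strand of the gene. Capitals mark CTGGGAA, the core letters of the interleukin 6 response element, and ATTAAC, the reverse strand of GTTAAT, which is one arm of the palindrome bound by HNF1. The stretches are chr3:82811397-82811646 (forward) for Fgg, chr3:82829826-82830075 (forward) for Fga and chr3:82853787-82854036 (reverse) for Fgb.
Fgg: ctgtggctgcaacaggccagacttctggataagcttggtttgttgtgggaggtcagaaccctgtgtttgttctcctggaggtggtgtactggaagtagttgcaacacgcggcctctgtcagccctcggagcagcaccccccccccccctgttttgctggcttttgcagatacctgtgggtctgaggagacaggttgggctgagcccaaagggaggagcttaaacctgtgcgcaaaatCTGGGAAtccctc
Fga: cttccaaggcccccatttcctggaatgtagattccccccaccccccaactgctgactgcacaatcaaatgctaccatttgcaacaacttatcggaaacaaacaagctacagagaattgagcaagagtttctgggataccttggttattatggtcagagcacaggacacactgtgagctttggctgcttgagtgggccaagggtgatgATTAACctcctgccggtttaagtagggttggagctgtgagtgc
Fgb: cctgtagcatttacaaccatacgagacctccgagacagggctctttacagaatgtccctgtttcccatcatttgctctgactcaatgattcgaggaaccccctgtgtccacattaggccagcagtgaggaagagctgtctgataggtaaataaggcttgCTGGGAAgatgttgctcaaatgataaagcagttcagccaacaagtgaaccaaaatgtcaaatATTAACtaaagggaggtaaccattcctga

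No single motif of those searched on both strands was present in all 3 promoters. CTGGGAA lay 13 to 7 bases before the start of Fgg and 91 to 85 bases before that of Fgb, and did not occur in the Fga stretch. It occurs in 9.05% of 21263 protein-coding promoter stretches of the same length. GTTAAT was found on the reverse strand of Fga, 43 to 38 bases before the start, and of Fgb, 29 to 24 bases before it, but not in Fgg, against 5.86% of promoters. TTCNNNGAA, the general letters of a STAT site, also occurred in Fga and Fgb (6.58% of promoters). The looser C/EBP letters TTNNGNAA, which 34% of promoters hold, matched at 1 place in Fga and 2 in Fgb. TATAAA (11.6% of promoters), TTGCGCAA (0.198%), CAAAGTCCA (0.39%) and the whole HNF1 palindrome (0.0047%) were not found in these windows. In no case does a match show a bound factor.

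All 3 promoters were poor in the CG dinucleotide. Fgg held 4 CG pairs, Fga 2 and Fgb 3, against a median of 10 over the same promoter stretches. The GC content was 56.8% for Fgg, 49.2% for Fga and 44.8% for Fgb, with a median of 55.6%, so Fgg was close to the median in base content while low in CG pairs. The ratio of observed to expected CG pairs was 0.2, 0.132 and 0.239, with a median of 0.53.

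The cluster was covered by every active mark in both sexes, and silent marks lay only at its sides or past Fgb. H3K27ac covered 44.2% of the window in males and 44% in females. H3K4me1 covered 32.8% and 37.7%, H3K36me3 32.2% and 32.5%, and H3K4me3 21.5% and 16.1%. H3K27me3 covered 25.2% and 24.3%, and H3K9me3 9.23% and 16%. Set beside 18571 autosomal windows of equal length, H3K4me3 cover stood out most: 2 windows reached the male value (0.0108%) and 34 the female one (0.183%). For H3K27ac the shares were 0.835% and 0.587%, for H3K4me1 2.5% and 3.15%, and for H3K36me3 17.2% and 17.7%. H3K27me3 was matched by 37.5% and 38.1% of windows, and H3K9me3 by 27.4% and 21.3%. Many of the windows were empty: 11255 held no male H3K4me3 peak and 9317 no male H3K27ac peak. They lay on a fixed grid, whereas the fibrinogen window was drawn around a gene cluster. With the grid shifted by 50% of a window, 6 (0.0323%) reached the male H3K4me3 value and 47 (0.253%) the female one. A window of the shifted grid holds all H3K4me3 peaks of the cluster, so the cluster itself is counted in both.

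**Figure D1:**
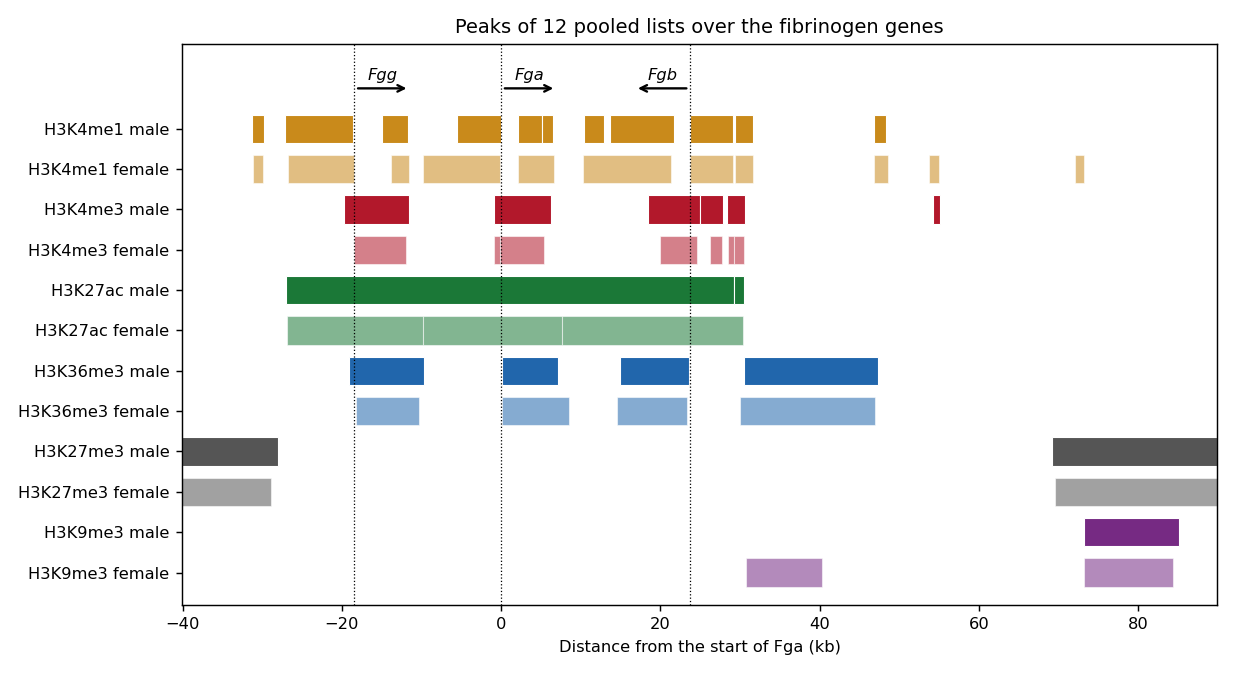
Peaks of each list (rows, male in full colour and female paler) along the window, with distance from the start of Fga in kb on the x axis and arrows at the starts of Fgg, Fga and Fgb. H3K27ac runs unbroken over the 3 genes, apart from gaps of at most 75 bp, H3K27me3 lies only at the 2 edges, and the female H3K9me3 island past Fgb has no male counterpart.

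H3K4me3 was broad at all 3 promoters and reached far into the genes. In the male list the Fgg peak (82810325 to 82818501) was 8177 bp wide with 2304 reads, and in the female list (82811609 to 82818123) it was 6515 bp with 1643 reads. The Fga peak had 1603 reads over 7136 bp in males (82829231 to 82836366) and 994 reads over 5495 bp in females (82829976 to 82835470). For Fgb the peaks held 1464 reads over 6539 bp (82848474 to 82855012) and 696 reads over 4680 bp (82849987 to 82854666). Each male peak was thus wider and held more reads than its female partner, in lists of nearly equal totals (5087982 male and 5084261 female reads). The whole lists leaned the same way. Median width was 1803 bp in males and 1474 bp in females, and median reads were 241 and 168. The male list held fewer peaks, 16018 against 18942. The genes themselves are 7333, 7475 and 7618 bp long in RefSeq, and the male peaks ran 6854, 6290 and 5312 bp past the starts of Fgg, Fga and Fgb.

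Against other genes these widths were high. Among 5010 placed protein-coding genes with an H3K4me3 peak at the promoter in the male list, where the median width was 2239 bp, Fgg ranked 31st, Fga 56th and Fgb 87th. In the female list the ranks were 56, 123 and 219 of 5028, with a median of 2042 bp. The placed promoters with at most 4 CG pairs carried H3K4me3 less often than the rest, 580 of 2782 (20.8%) against 4430 of 5382 (82.3%) in males. Within those 580 the widths of Fgg, Fga and Fgb ranked 9, 19 and 28, and within the 598 of the female list 14, 28 and 56.

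Per kb of peak, H3K4me3 at the 3 gene promoters was densest at Fgg. In both lists the Fgg peak also overlapped the promoter of Gm30097, on the other strand. Its width, density and summit therefore cannot be assigned to Fgg alone. The male density was 282 reads per kb (270 to 294) at Fgg, 225 (214 to 236) at Fga and 224 (213 to 236) at Fgb. The female densities were 252 (240 to 265), 181 (170 to 192) and 149 (138 to 160). The order Fgg, Fga, Fgb held in both lists, but the male values of Fga and Fgb did not differ beyond counting error. These values count reads in the authors' peaks, not molecules.

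**Figure D2:**
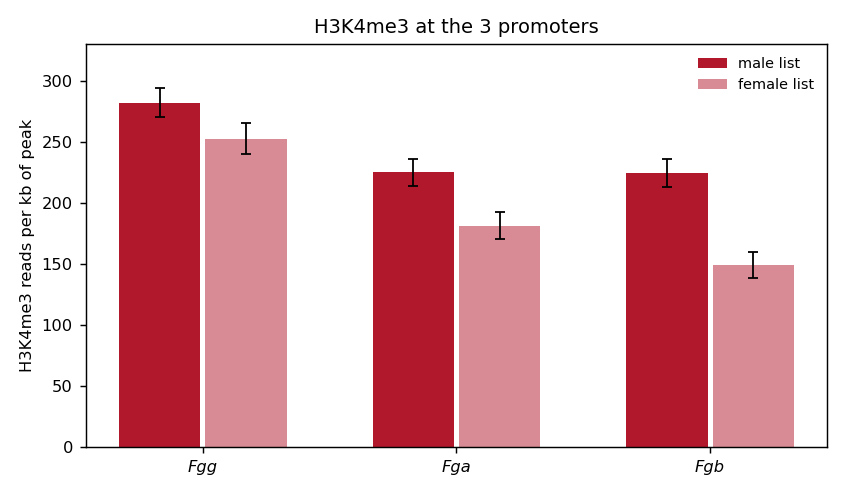
H3K4me3 reads per kb of the promoter peak (y axis, from 0) for Fgg, Fga and Fgb, 1 bar for each pooled list, with exact Poisson 95% intervals. Fgg is highest in both lists at 282 and 252 reads per kb, and the female Fgb peak is lowest at 149.

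Reads of an IgG control were also dense at these promoters. The 300 bases from 250 before to 50 after the start held 12 IgG reads at Fgg, 5 at Fga and 12 at Fgb, where the median placed promoter held 2. Only 0.245% of placed protein-coding genes had as many as Fgg or Fgb, and 13% as many as Fga. Together the 3 promoters had 7.19 times the mean density of the autosomes (4.81 to 10.3), which was 4.48 IgG reads per kb, and 7.11 times with reads of equal position and strand counted once. A promoter was placed only where at least 1 IgG read matched it, which raises the counts of all placed promoters. The whole window was at 1.29 times the mean (1.2 to 1.38) and the H3K27ac stretch at 1.6 (1.45 to 1.77). This library came from 1 male record with mice of 7 to 8 weeks, and its part in the H3K4me3 or H3K27ac values was not tested.

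The H3K4me3 ratio was above 0 on the log2 male over female scale at all 3 genes and rose in the order Fgg, Fga, Fgb. In the authors' deposited table it was 0.40 for Fgg in both the male list (sex p = 1.4e-17) and the female list (1.36e-16). For Fga the authors' deposited table gives 0.56 in the male list (4.32e-22) and 0.57 in the female list (1.07e-21). Fgb had the highest of the 3 in the authors' deposited table, 0.93 in the male list (1.07e-48) and 0.94 in the female list (6.5e-46). The lists do not show how this p was computed, and each sex has 1 pooled list. The p is therefore not read here as covering how animals vary. In the male list, 1.9% of placed genes with a promoter peak had a ratio above that of Fgb, 6.63% above that of Fga and 12.3% above that of Fgg, and in the female list 1.25%, 5.01% and 10.7%. The median of those genes was 0.00 in males and -0.03 in females, and it was 0.04 and 0.00 for promoters with at most 4 CG pairs.

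None of the 55 peaks carried a sex call, for which the authors' deposited table requires an absolute log2 of at least 1 with a p below 0.001. Over whole lists the called share was 4.96% of male and 2.59% of female H3K4me3 peaks, 8.71% and 5.13% for H3K4me1, 2.6% and 3.63% for H3K27ac, and 0.592% and 0.457% for H3K36me3. It was 0.808% and 0.0615% for H3K27me3 and 3.45% and 2.3% for H3K9me3. In so few peaks a count of 0 is near these shares, and nothing is read from it. At 1.5-fold with the same p, 3 of the 55 passed, all H3K4me3 and all higher in males: 2 of 6 in the male list, where 8.1% of all peaks passed in that direction, and 1 of 7 in the female list, where 3.96% did. They are the Fgb promoter peak in each list and a weak male peak at 82884251 to 82885179 with 66 reads, which had a log2 of 0.996 (p = 0.00099) in the authors' deposited table and lay just under the call. That weak peak had no female partner and a false discovery rate of 100% by the caller.

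**Figure D3:**
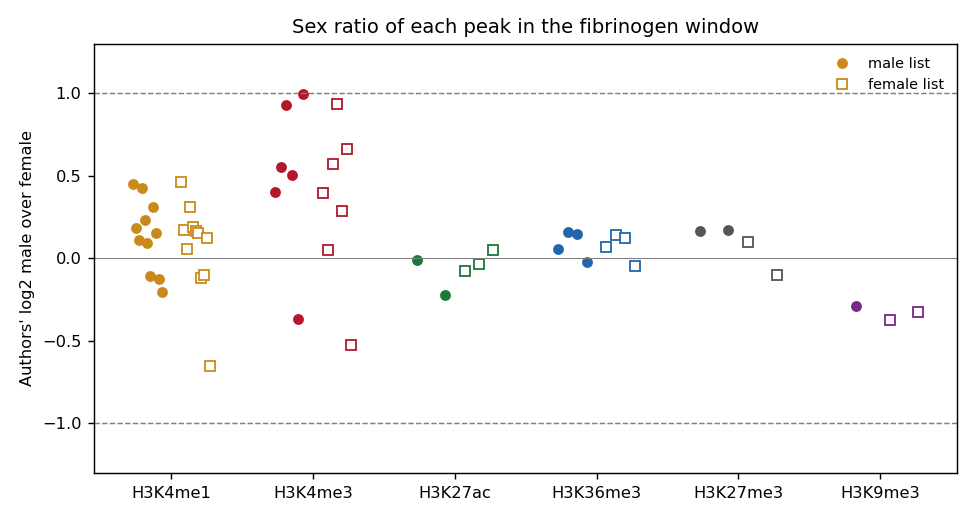
The authors' log2 male over female ratio (y axis) of each of the 55 peaks by mark, filled circles for the male list and open squares for the female list, with dashed lines at 1 and -1 where a sex call begins. H3K4me3 peaks reach 0.996 while H3K27ac and H3K36me3 peaks stay between -0.22 and 0.16.

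Upstream of Fgb, the H3K4me3 peak at the end of the H3K27ac stretch went the other way. The smaller peaks nearer the gene had ratios above 0, but none had a sex p below 0.001. The outer peak had its summit at -5891 bp (male) and -5877 bp (female) from the Fgb start, before the gene. It held 416 reads in the male list (82858420 to 82860681) and 484 in the female list (82859330 to 82860521). Its ratio in the authors' deposited table was -0.37 (p = 0.000235) in the male list and -0.53 (p = 5.97e-07) in the female list. The female peak was narrow and dense, 406 reads per kb over 1192 bp, above any of the promoter peaks of the 3 genes. In the male list the outer peak was wider, with 184 reads per kb over 2262 bp, below the male promoter peaks of all 3 genes. The outer peak lies at the end of the H3K27ac stretch, on the side of Plrg1. Whether it belongs to Fgb or to Plrg1, whose start was not placed, was not tested. Between it and Fgb lay smaller H3K4me3 peaks of 209 reads in males (82855020 to 82857905, log2 0.51 in the authors' deposited table) and 118 in females (82856263 to 82857748, 0.29). A female peak of 43 reads (82858601 to 82859311) had 0.67 (p = 0.0188) in the authors' deposited table and a false discovery rate of 50.3% by the caller. It lies within the bases of the male outer peak, so these bases carry ratios of opposite sign in the male and female lists. Another female peak, of 53 reads just before Fga (82829142 to 82829970), had 0.05 in the authors' deposited table.

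Summed over the window, the male over female ratio of reads was highest for H3K4me3 among the 6 marks and lowest for H3K27me3. Its peaks held 1191 of every 1000000 list reads in males (1162 to 1222) and 793 in females (769 to 818), a ratio of 1.5. H3K27ac peaks held 724 (712 to 737) and 768 (753 to 783), a ratio of 0.943, and H3K4me1 peaks 330 (320 to 340) and 297 (290 to 305), a ratio of 1.11. The H3K36me3 values were 208 (201 to 216) and 200 (192 to 208), with overlapping intervals. H3K27me3 peaks held 82.5 and 157, a ratio of 0.525, and H3K9me3 peaks 66.8 and 96, a ratio of 0.696. The H3K27me3 ratio became 1.18 with reads counted in proportion to the bases inside the window, which the female right island leaves. When reads per kb were instead divided by those of the median peak of the list, the H3K4me3 ratio fell to 0.937 and the H3K27ac ratio became 1.18. The direction of both sums therefore depends on the scaling, and the wider male H3K4me3 peaks enter the first measure and not the second.

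Around each start, H3K4me1 and H3K4me3 cover largely followed the direction of transcription. H3K4me1 filled the 6 kb before the start: 96.7% in males and 99.8% in females at Fgg, 91% and 98.4% at Fga, 95.5% and 97% at Fgb. It also covered part of the 6 kb after the start: 42.5% and 23.5% at Fgg, 64% and 64.8% at Fga, 66.2% and 62.1% at Fgb. The upstream H3K4me1 peaks stopped 202 and 12 bases before the Fgg start, 42 and 96 before that of Fga, and 7 and 55 bases past that of Fgb. The H3K4me3 promoter peaks began 38 to 1322 bases before the starts and filled the 6 kb after the start, 100% in both sexes at Fgg, 100% and 89.9% at Fga, 88.5% and 63.3% at Fgb. Before the start it covered 22% and 0.633% at Fgg and 14.1% and 15.5% at Fga. Fgb differed, with 91.3% and 58.9% covered upstream, where the smaller peaks lie. In males that was above the cover after the start. In the promoter peak with most reads of each gene and list, the H3K4me3 summit stood past the start. It lay at 922 and 1595 bp for Fgg, 898 and 202 bp for Fga, and 1027 and 896 bp for Fgb. The small female peak just before Fga also overlapped the promoter stretch, with its summit at -549 bp. From the start of Gm30097, the Fgg summits lay at -231 bp (male) and -904 bp (female).

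**Figure D4:**
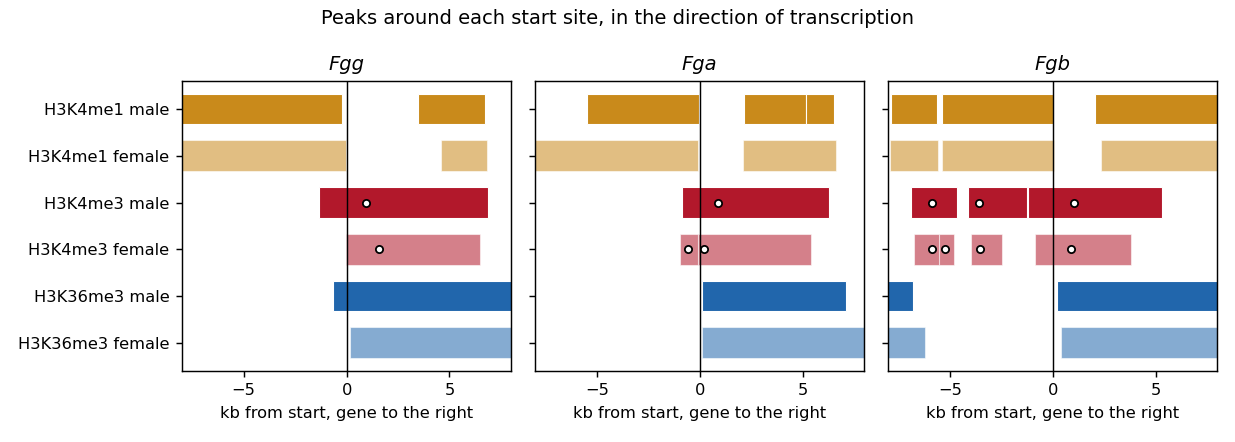
H3K4me1, H3K4me3 and H3K36me3 peaks of the male and female lists within 8 kb of each start, turned so that transcription runs to the right (x axis in kb), with white circles at H3K4me3 summits. An H3K4me1 peak ends close to the start of each gene, and H3K4me3 and H3K36me3 run from there into the gene. Further H3K4me1 peaks lie inside each gene, and those at Fgb reach past its end.

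The H3K4me1 peaks with most reads lay before Fgg, before Fga, and over the 3′ part of Fgb and past its end. In the male list they held 906 reads before Fgg (82802886 to 82811445), 854 before Fga (82824577 to 82830034) and 714 in the Fgb block (82843790 to 82851752). The female list had 1199, 1408 and 1300 reads in the overlapping blocks, of which the last 2 were wider, at 9699 and 11160 bp. Summits of the Fgb blocks lay 9530 bp (male) and 12464 bp (female) past the start of this gene of 7618 bp. The female block there also overlapped the Gm40075 promoter and a second male peak of 213 reads. Its 1300 reads and the 714 male reads therefore come from unlike stretches. By density the male block before Fga stood in the top 0.151% of its list, at 156 reads per kb, with a false discovery rate of 31.7% by the caller. The wider female block stood in the top 10.3% of its list, at 145 reads per kb. In the authors' deposited table the log2 of the male block was 0.43 (p = 9.72e-12), and that of the female block 0.31 (p = 5.71e-09). The male block at Fgb had 0.31 (p = 6.19e-06) in the authors' deposited table, the other male H3K4me1 peak with a p below 0.001. Over all H3K4me1 peaks of the window 8 of 11 ratios were above 0 in each list, and the medians were 0.15 in each, against list medians of 0.16 and -0.09. The largest in size in the authors' deposited table were 0.45 (male list) and 0.47 (female list) for a small peak left of the H3K27ac stretch, and -0.65 (p = 0.0112) for a female peak of 90 reads at 82902148 to 82903281 with no male partner.

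H3K27ac formed 1 stretch over the whole cluster. In the male list a single peak of 56262 bp (82803070 to 82859331, 13779 reads) spanned Fgg, Fga and Fgb, and a second of 1164 bp with 169 reads followed after 5 bp. That peak ranked 3rd by width and 6th by reads among 40903. The female list split the same stretch into 3 peaks of 17090, 17400 and 22726 bp with 3237, 2777 and 3845 reads, separated by 75 and 25 bp. End to end the stretch was 57431 bp in males and 57316 bp in females, and 99.6% of the bases covered in either list were covered in both. With peaks at most 1 kb apart joined, it was the 10th widest of 33744 male and the 6th widest of 31445 female stretches. The rank depends on joining: at 100 bp it was 3 and 2, and at 5 kb 119 and 76. Density was 243 reads per kb in males and 172 in females, with list medians of 88.4 and 74.1.

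No H3K27ac peak had a sex p below 0.001. The long male peak had a log2 of -0.01 (p = 0.419) in the authors' deposited table, and the 3 female peaks had -0.08 (p = 0.0545), -0.03 (p = 0.364) and 0.05 (p = 0.137). The short male peak at the Plrg1 end had -0.22 (p = 0.21) in the authors' deposited table. With no replicate lists, a p that misses a threshold does not show that the levels are equal.

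**Figure D5:**
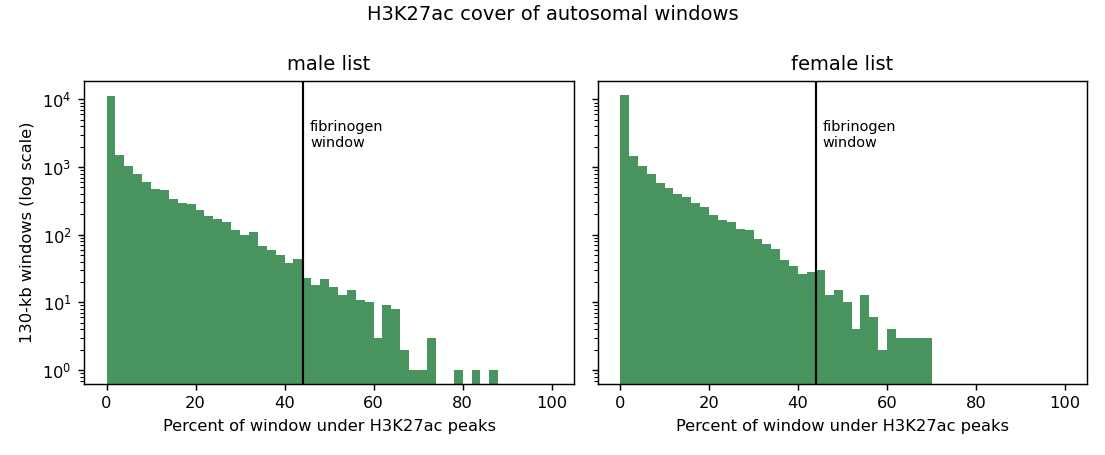
Number of autosomal windows of 130 kb (y axis, log scale) by the percent of each covered with H3K27ac peaks (x axis), male list left and female list right, with a line at the fibrinogen window. The window is covered to 44.2% and 44%, and 0.835% and 0.587% of windows are covered at least as much.

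H3K36me3 lay over each gene as an island of its own. The male islands held 712 reads over Fgg (82811000 to 82820399), 537 over Fga (82830200 to 82837199) and 725 over Fgb (82845000 to 82853599). In the female list the islands held 585 (82811800 to 82819799), 448 (82830200 to 82838599) and 582 reads (82844600 to 82853399). None of the 6 reached far upstream: cover of the 6 kb before the start was 10.8% at Fgg in males and 0% in the other 5 cases, and after the start it was 93.5% to 100%. For Fgg, Fga and Fgb in turn, the authors' deposited table gives log2 ratios of 0.06, 0.16 and 0.15 in the male list and 0.07, 0.14 and 0.12 in the female list. Another, wider island lay past Fgb, in the direction of Plrg1, with 1054 reads in males (82860600 to 82877399) and 958 in females (82860000 to 82876999), and log2 -0.02 and -0.05 in the authors' deposited table.

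Read density and enrichment over control ranked these islands differently. The 3 male gene islands had 75.7, 76.7 and 84.3 reads per kb for Fgg, Fga and Fgb, within the top 1.4% of their list, while the island past Fgb had 62.7. The control reads of the authors were also denser over the genes, 22.3, 15.7 and 17.3 per kb, against 9.94 past Fgb and a list median of 10.3. The fold over control was 2.14, 3.09 and 3.08 over the genes and 3.99 past Fgb, with a list median of 2.35. The female densities were 73.1, 53.3 and 66.1 reads per kb over Fgg, Fga and Fgb and 56.4 past Fgb, so the Fga island was below the outer one there. Female control densities were 21.8, 15.5 and 18 over the genes against 10.5 past Fgb, and the folds were 2.28, 2.34 and 2.5 against 3.63. In both lists the fold was highest in the island past Fgb. The part of the control in these densities was not tested.

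H3K27me3 islands lay on both sides of the cluster, the left ones weak. H3K27me3 islands ended at 82801999 in males and 82801199 in females on the left, and began again at 82899200 and 82899600 on the right. The space between them was 97200 bp in males and 98400 bp in females. H3K27ac began 1070 bp past the left edge in males and 1941 bp in females, but ended 38699 and 39143 bp short of the right edge. In males 22 of 23 peaks of active marks lay wholly inside this space, and in females 23 of 25. The left islands held 450 and 435 reads and the right ones 813 and 2224, and the female right island ran past the window to 82971599. The left islands had folds over control of 1.35 and 1.27 and ranked 14799 of 20048 and 17297 of 19506 by score. With only the better-scoring 50% of each list, the left island was lost in both sexes and cover fell to 16% and 15.7% of the window. In the authors' deposited table the ratios of the left and right islands were 0.17 and 0.17 in the male list and 0.10 and -0.10 in the female list.

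H3K9me3 was sparse. One island inside the right H3K27me3 island was found in both sexes, with 102 reads in males (82903200 to 82915199) and 159 in females (82903200 to 82914399), and log2 -0.29 and -0.32 in the authors' deposited table. With the better-scoring 50% of each list the male island was lost (rank 6854 of 10875 by score) and the female one remained (3472 of 17626). A second, at 82860800 to 82870399, was in the female list only. It held 80 reads, 8.33 per kb, in the weakest part of its list by density (94.6% ranked at or above it), and its log2 was -0.37 (p = 0.149) in the authors' deposited table. All its 9600 bp lay inside the female H3K36me3 island past Fgb. No base of the H3K27ac stretch was under H3K27me3 or H3K9me3 in either sex.

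Other coagulation and acute phase genes of the liver were read the same way. Of 17 listed genes of coagulation and fibrinolysis, 11 were placed, and 10 had H3K4me3 at the promoter in the male list and 11 in the female list. Of 16 acute phase genes, 10 were placed and 9 had H3K4me3 in each list. Over all placed protein-coding genes the share was 61.4% (male) and 61.6% (female). The widest H3K4me3 peaks were 10038 and 8860 bp among coagulation genes and 6761 and 8379 bp among acute phase genes (male and female lists). At Fgg the peaks were 8177 and 6515 bp. All the placed genes of both lists had H3K27ac, against 61.2% (male) and 60.3% (female) of all placed protein-coding genes. None had H3K27me3 at the promoter, against 20.7% and 21.9%. None had H3K9me3 there either, against 4.83% and 3.86%, and in so few genes nothing is read from its absence. The H3K27ac peaks of the listed genes had median widths of 10473 and 9158 bp for coagulation and 7048 and 6801 bp for acute phase genes in the male and female lists. The widest were 24171 (coagulation) and 35558 bp (acute phase, at Alb) in the male list, below the 56262 bp at fibrinogen. In the female list they were 22905 and 35530 bp, above the widest of the 3 fibrinogen peaks (22726 bp) for both lists of genes. The comparison of single peaks thus turns round between the lists, since the female list divides the fibrinogen stretch.

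Sex calls for H3K4me3 went both ways in these lists. Klkb1, which encodes plasma prekallikrein, was called male in both lists of the authors' deposited table, at 1.0 (male) and 1.02 (female), the 1 call among the coagulation genes. Of the acute phase genes, Alb, which encodes albumin, was called male at 1.46 and 1.42 in the authors' deposited table. C3, the central complement component, was called female at -1.18 and -1.19 there. Among all placed promoters with a peak, 1.52% were called in the male list and 1.45% in the female list. The median log2 was 0.24 for the coagulation and 0.14 for the acute phase genes in the male list, against 0.00 for all placed genes. Ratios above 0 numbered 7 of 10 and 5 of 9, against 2481 of 5010 over all placed genes with a peak. The 3 fibrinogen genes, at 0.40 to 0.93, were above both medians but below Alb, Klkb1 and F13b (0.972). Crp (0.744) was also above Fgg and Fga, and Ahsg (0.43) above Fgg. No H3K27ac call occurred among the listed genes, against 0.501% (male) and 0.731% (female) of all placed promoters with a peak. In so few genes nothing is read from this.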

How the data were processed

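ChIP-seq peak lists of 6 histone marks in male and female mouse liver were used as deposited. The submitters' processing notes name mm9, Bowtie and SICER 1.1. Per the labels, SICER islands of H3K36me3 were built from windows of 200 bp and gaps of 800 bp, and those of both silent marks from 400 and 2400 bp. The other lists have MACS column names, and their caller's version was not stated. The authors deposited raw read and tag counts per peak, a fold ratio over control, a false discovery rate in percent or a p-value, a peak score of minus 10 times log10 p, and a log2 male over female ratio with its p-value and call. The normalisation of that log2 ratio is not given in the labels or files. Part of the H3K27ac tag counts was rounded by the authors to 3 significant digits.

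Computed here, with Python, numpy, pandas and scipy, were overlaps (at least 1 bp), coverage, reads in each 1000000 of a list, ranks and densities. The code was tested on simulated peaks. Promoters of 300 bases (RefSeq, assembly GRCm38.p6) were placed on mm9 where reads of 35 bases from 1 male IgG library, 11201113 reads in all, matched exactly and implied 1 start with the same shift as a neighbour. This placed 14248 of 31396 autosomal promoters, of which 8164 protein-coding genes entered the ranks. Other IgG libraries were not used here. Named peaks are all those of H3K4me3, H3K36me3, H3K27me3 and H3K9me3, and for H3K4me1 and H3K27ac the 3 with most reads and the 3 with the largest absolute log2 in each list. The members and gene lists were chosen with earlier results of these data known. Placement, the spans of 6 kb, the limit of 4 CG pairs and the joining of H3K27ac peaks were chosen after seeing the data. No paired analysis was possible because each mark and sex has 1 pooled list.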

Additional observations from a re-analysis of the deposited data

How the results depend on the processing

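The lists are pooled, so no library could be left out and no replicate spread is known. No paired analysis was possible because each mark and sex has 1 pooled list. Counting only peaks with at least 50% of their width inside the window gave 54 peaks, a window widened by 20 kb on each side gave 59, and the better-scoring 50% of each list gave 39. H3K27ac cover fell to 33.8% (male) and 33.7% (female) in the widened window and was 43.3% in males with the better-scoring peaks. The better-scoring 50% left 1 of 2 H3K27me3 islands in each sex, 0 of 1 male H3K9me3 islands and 1 of 2 female ones. With reads per kb over the median peak of the list, the male over female ratio of reads was 0.987 for H3K4me1, 0.937 for H3K4me3, 1.18 for H3K27ac, 1.03 for H3K27me3 and 0.991 for H3K9me3, against 1.11, 1.5, 0.943, 0.525 and 0.696 per 1000000 list reads. The H3K27me3 ratio was 1.18 when reads were counted in proportion to the bases inside the window, since the female island runs past it. Centring on shared peaks moved the median H3K9me3 log2 to -0.4 (male list) and -0.22 (female list) and moved no other median by more than 0.1. The count of peaks past the sex threshold was 0 at an absolute log2 of 1, with centring, and at an absolute log2 of 2, and 3 at 1.5-fold. On the strand of the gene alone, GTTAAT matched in 0 of the 3 promoters and TTNNGNAA in 1. Of 121 alternative values, 77 stayed within the limits set and 44 moved. Depth is lowest for H3K9me3, whose islands here rest on 80 to 159 reads.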
